A study of Homo sapiens with 20 samples.

Results

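The transcripts followed here are those of 10 BCL2 family regulators of apoptosis, chosen by gene symbol. They are the anti-apoptotic MCL1, BCL2A1 and BCL2L1, the BH3-only genes BCL2L11, BBC3, PMAIP1, BID and BMF, and the effectors BAX and BAK1. Probe sets annotated to 1 of these symbols and to no other gene were taken as members' probe sets. They numbered 27 of the 54675 on the array and covered 9 of the 10 genes, and all 9 were among the 14478 genes tested. The probe set for BBC3 (PUMA) also carried other symbols, so BBC3 has no value here.

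U2OS, a human osteosarcoma cell line, was studied in 5 conditions. Cells were made hypoxic at under 0.1% oxygen for 3 hr, were exposed to tunicamycin at 2.5 µg/ml for 3 hr, were exposed to emetine at 100 µg/ml for 3 hr, carried a short hairpin against UPF1 (shRent1), or were control cells. Tunicamycin blocks N-linked glycosylation and stresses the endoplasmic reticulum. Emetine stops ribosomes from elongating. UPF1 is the helicase at the centre of nonsense-mediated RNA decay. Every condition then received DRB at 100 µg/ml, which shuts off new transcription by RNA polymerase II. RNA was collected before any DRB (0 hr) and after 1.5 hr, 3 hr and 4.5 hr of it. Each of the 20 arrays is the only one of its condition and time. No control hairpin is named for the UPF1 depletion. The labels do not say that arrays came from separate cultures, and do not say whether the stress went on during DRB. Condition and array batch therefore cannot be told apart.

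BCL2 family proteins decide whether the outer mitochondrial membrane stays intact. BAX and BAK1 form the pores that release cytochrome c, the anti-apoptotic members hold them in check, and BH3-only proteins either bind the anti-apoptotic members or activate BAX and BAK1 directly. MCL1 is known for a short-lived protein and a short-lived mRNA, so that its supply depends on continued transcription and translation, whereas BCL2L1 (BCL-XL) is known for its stability. PMAIP1 (NOXA) binds MCL1 and BCL2A1, and its gene is induced by p53 and by the ATF4 arm of the stress response.

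The promoters of PMAIP1 and BCL2A1 are shown because these transcripts differed between the stresses, as given further on, and because each holds a match to a stress-response motif. Both are RefSeq windows on GRCh38.p14, from 250 bases before to 50 bases after the gene's start and written in the direction of the gene. PMAIP1 lies at chr18:59899746-59900045 on the plus strand and BCL2A1 at chr15:79971147-79971446 on the minus strand. Capitals mark a match to the CRE core TGACGT, read on the opposite strand, in PMAIP1, and a match to TGATGNAA, the C/EBP-ATF response element, in BCL2A1.
PMAIP1: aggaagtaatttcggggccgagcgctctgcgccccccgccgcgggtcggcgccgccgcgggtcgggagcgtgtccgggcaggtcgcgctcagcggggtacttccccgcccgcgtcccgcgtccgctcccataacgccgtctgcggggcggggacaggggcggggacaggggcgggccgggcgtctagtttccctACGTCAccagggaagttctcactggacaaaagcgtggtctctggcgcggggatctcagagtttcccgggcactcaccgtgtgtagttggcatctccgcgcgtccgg
BCL2A1: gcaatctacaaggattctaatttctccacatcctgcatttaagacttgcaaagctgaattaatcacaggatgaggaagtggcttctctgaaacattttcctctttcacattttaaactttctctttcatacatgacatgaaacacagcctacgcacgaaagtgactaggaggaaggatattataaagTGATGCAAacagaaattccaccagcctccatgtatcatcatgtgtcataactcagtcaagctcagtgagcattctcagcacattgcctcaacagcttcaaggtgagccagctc
The PMAIP1 match begins 56 bases before the start of the gene, and the BCL2A1 match begins 63 bases before it. Of 35116 such windows of all genes, 7.98% hold TGACGT and 3.62% hold TGATGNAA on either strand. Of the 9 family genes with a window, 1 holds each motif. The AP-1 motif TGANTCA, present in 7.71% of all windows, is in that of BBC3 alone, and ACGTG, the core of the HIF motif, present in 21.4% of all windows, is in those of BAX, BBC3 and BID. The percentages count windows, whereas a family gene is counted if any of its windows holds the motif. BID has 5 windows and BCL2L1 and BMF have 2 each, so the gene counts and the percentages are not in the same unit. These matches describe letters in a window and were not tested for binding.

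Values are RMA intensities, a scale meant to remove changes shared by all transcripts, so slopes are read relative to the rest of the array. From 0 hr to 4.5 hr the upper quartile still went from 184 to 162 in control and from 201 to 167 in UPF1-depleted arrays. It went from 179 to 168 in hypoxia, from 184 to 171 in tunicamycin and from 194 to 193 in emetine. The part of this trend in the slopes was not tested. Array medians lay between 37.3 and 40.4 and upper quartiles between 162 and 201, so the arrays did not share one distribution, and arrays correlated with each other at 0.930 to 0.996. UPF1 itself, on its brighter probe set, averaged 112 (range 89.4 to 170) over the 4 UPF1-depleted arrays and 369 (352 to 392) over the 4 control arrays, or 30.2% of control. A second UPF1 probe set was at 61.4% of control. Of 9 mesenchymal or osteosarcoma markers measured, 7 lay above the filter value used here (intensity 26.0), led by VIM at log2 13.9. COL1A2 and TWIST1 lay below it. Of 8 markers of other cell types, 5 lay above it and their brightest was EPCAM at log2 8.11. The summed intensity of the 8 was 522 to 732 in hypoxia, 421 to 526 in tunicamycin, 419 to 498 in emetine, 452 to 523 in UPF1-depleted and 479 to 630 in control arrays. The ACTB probe sets at the 3′ and 5′ ends of that mRNA differed by 2.04 ± 0.13 (log2, SD over 4 arrays) in hypoxia, 0.54 ± 0.11 in tunicamycin, 2.04 ± 0.19 in emetine, 1.24 ± 0.06 in UPF1-depleted and 0.55 ± 0.10 in control cells. Hypoxia, emetine and UPF1-depleted arrays thus had more 3′-weighted signal, and its part in the differences between conditions was not tested.

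The first question was which family transcripts were lost once transcription stopped. In control cells MCL1 fell steeply and PMAIP1 fell more slowly, while no other member passed the test. A straight line was fitted to the log2 values of each condition against time, with limma across all genes, and 2 of 9 members fell and none rose in control cells, where 17.5% of all genes fell and 14.2% rose. MCL1 was lost at 0.72 ± 0.10 log2 per hr (slope −0.72, adjusted p = 8.42e-05), and PMAIP1 at 0.21 ± 0.06 (slope −0.21, adjusted p = 0.0160). The other slopes in control cells lay between −0.17 for BCL2L11 and 0.11 for BAX. MCL1 and the BH3-only transcripts did not form 1 short-lived group by this measure: of the 4 BH3-only members measured, PMAIP1 fell, BCL2L11 did not pass the test on its brightest probe set, and BID and BMF had slopes above 0. The line for PMAIP1 leaned on 1 array. Without the control array at 0 hr it was −0.11 (adjusted p = 0.510), without that at 4.5 hr it was −0.41 (adjusted p = 6.44e-04), and with the 4 control arrays alone in the fit its adjusted p was 0.131.

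**Figure D1:**
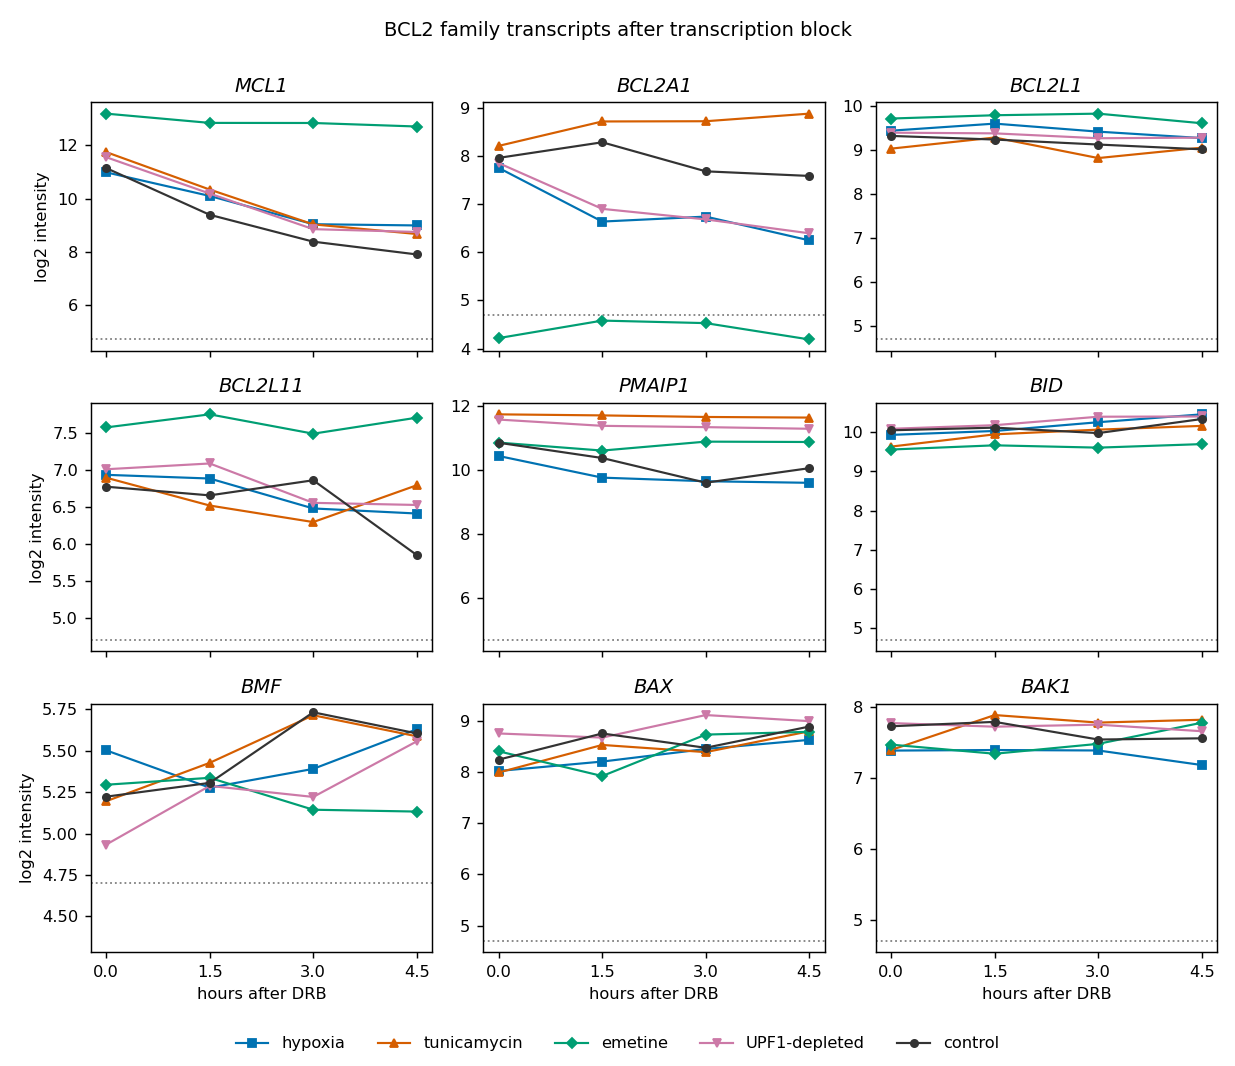
Log2 intensity (vertical axis) of each of the 9 measured family members against hours after DRB (horizontal axis), with 1 line for each condition and 1 array at each point; the dotted line marks the filter value of log2 4.70. MCL1 stays high in emetine alone, PMAIP1 stays high in tunicamycin and UPF1-depleted cells, and BCL2A1 lies below the dotted line at every time in emetine.

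MCL1, the anti-apoptotic member that sequesters BAK1 and several BH3-only proteins, had more RNA in emetine than in any other condition and kept it after DRB. Its intensity at the 4 times, in order, was 9349, 7346, 7329 and 6687 in emetine. The same 4 times gave 2026, 1095, 524 and 508 in hypoxia, 3432, 1293, 522 and 406 in tunicamycin, 3005, 1165, 461 and 428 in UPF1-depleted cells, and 2262, 670.0, 333 and 239 in control cells. Every emetine array lay above every array of the other conditions, which overlapped each other. At 4.5 hr 71.5% of the starting intensity was left in emetine, 25.1% in hypoxia, 14.3% in UPF1-depleted cells, 11.8% in tunicamycin and 10.5% in control cells. Most of the loss outside emetine came before 3 hr.

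The level of MCL1 at DRB addition was compared with control cells in a limma model with time as a factor and a line for each condition. Levels here and below are therefore fitted values at 0 hr that draw on all 4 times. They are not the difference between the 0 hr arrays, which was 2.05 log2 for MCL1 in emetine. The 2 can differ in sign where the difference is small: BAX in emetine was 0.16 at 0 hr and −0.17 in the fit. It was higher in emetine by 2.30 ± 0.20 log2, or 4.92-fold (95% interval 1.86 to 2.74 log2, adjusted p = 4.08e-06), and MCL1 was above control at 4 of 4 times. In tunicamycin the difference was 0.71 ± 0.20 (adjusted p = 0.0887) and in UPF1-depleted cells 0.48 ± 0.20 (adjusted p = 0.140), neither past the threshold, although both conditions lay above control at 4 of 4 times. In hypoxia it was 0.02 ± 0.20, with an interval from −0.42 to 0.46. Ordered by level, emetine stood above tunicamycin by a called difference. Tunicamycin and UPF1-depleted cells differed by 0.23 (adjusted p = 0.474), UPF1-depleted cells and hypoxia by 0.46 (hypoxia lower, adjusted p = 0.118), and hypoxia and control by the 0.02 above, none of them past the threshold.

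The slope of MCL1 after DRB was less steep in emetine than in control cells by 0.62 ± 0.07 log2 per hr (adjusted p = 9.79e-05). Within emetine its own slope was −0.10 ± 0.10 (adjusted p = 0.678). It fell in every other condition, by 0.47 ± 0.10 log2 per hr in hypoxia (adjusted p = 0.00297), by 0.70 in tunicamycin (adjusted p = 2.22e-04) and by 0.65 in UPF1-depleted cells (adjusted p = 2.31e-04). Each of these 3 calls needed the 0 hr array of its own condition: without it the slope fell by 0.37 in hypoxia (adjusted p = 0.172), by 0.56 in tunicamycin (adjusted p = 0.0664) and by 0.48 in UPF1-depleted cells (adjusted p = 0.0620). Hypoxia retained more MCL1 than control cells at 1.5, 3 and 4.5 hr. Its slope was less steep by 0.25 ± 0.07, with an interval of 0.09 to 0.40, and missed the threshold over all genes (adjusted p = 0.262). The slope differences of tunicamycin and UPF1-depleted cells from control were 0.01 and 0.07, with intervals of −0.14 to 0.17 and −0.09 to 0.22. UPF1 depletion and tunicamycin therefore gave no detectable change in the loss of MCL1 RNA at this number of arrays.

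MCL1 has 6 probe sets, of which 5 lie above the filter value. All 5 passed the test for a higher level in emetine, with differences from 0.97 to 2.68 log2. All 5 fell in control and in tunicamycin arrays, 4 of 5 fell in hypoxia and in UPF1-depleted arrays, and none fell in emetine. The slope difference between emetine and control was positive for all 5 and passed for 3 of them, with a range of 0.24 to 0.69. With the median of the probe sets in place of the brightest, the slope difference in emetine was 0.35 (adjusted p = 0.00270) and the loss in control cells was at a slope of −0.37. One dimmer probe set of MCL1 (mean log2 5.73) differed from the others in hypoxia, where its level was lower by 1.16 ± 0.25 (difference −1.16, adjusted p = 0.0177), while the other 4 ran from 0.02 to 0.38 and did not pass. It lay below control at 3 of 4 times in hypoxia and also in UPF1-depleted cells, where its mean difference was −0.28. The order of conditions given above for MCL1 is that of the brightest probe set.

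**Figure D2:**
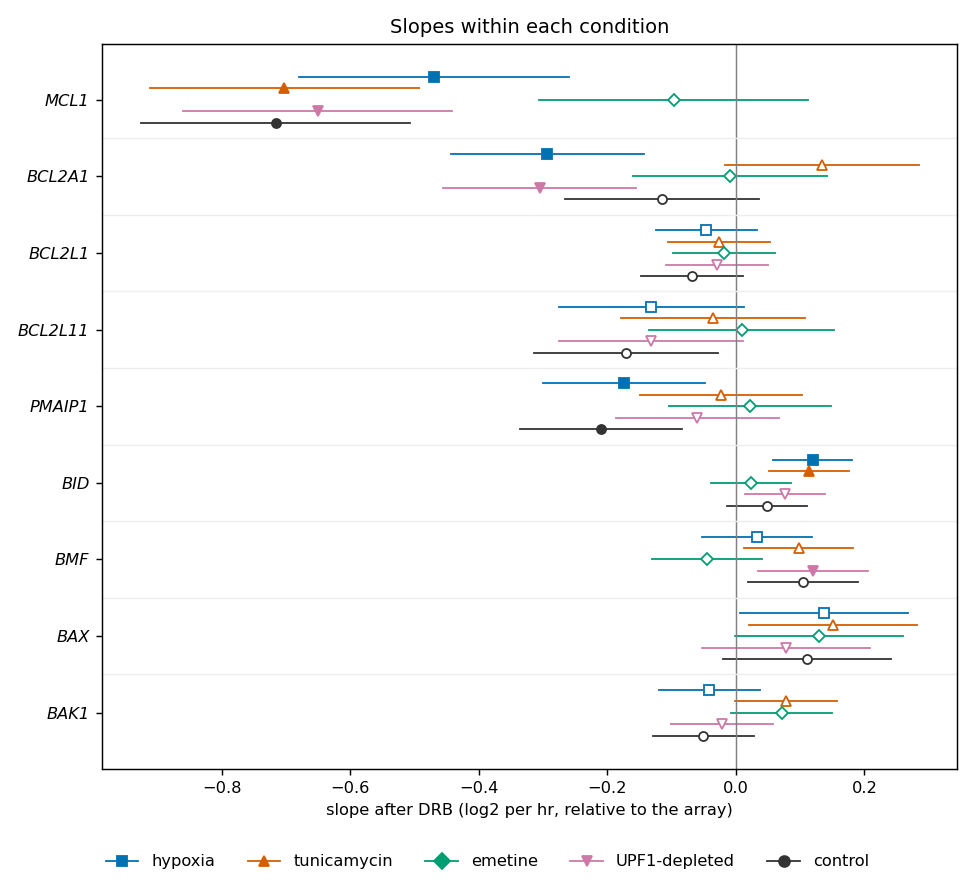
Slope after DRB in log2 per hr (horizontal axis, relative to the typical transcript on the array) for each member (vertical axis) in each condition, with 95% intervals; filled symbols have an adjusted p under 0.05. MCL1 lies far to the left of 0 in every condition but emetine, and no member has a filled symbol in emetine.

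BCL2A1, an anti-apoptotic member known as a target of NF-κB in blood cells, moved the other way from MCL1 in emetine. Its 1 probe set read 18.6, 23.9, 23.1 and 18.3 at the 4 times in emetine, 215, 99.4, 107 and 75.9 in hypoxia, 295, 419, 420.5 and 469 in tunicamycin, 230.2, 119, 103 and 84.0 in UPF1-depleted cells, and 248, 311, 205 and 192 in control cells. All 4 emetine values lie under the filter value of 26.0, and no array of another condition does. The level in emetine was lower than in control cells by 3.73 ± 0.29 log2 (difference −3.73, adjusted p = 1.71e-06). Because the emetine values sit at background, the size of that difference is uncertain. In a culture sampled in bulk, less RNA in every cell and RNA in fewer cells cannot be told apart.

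After DRB, BCL2A1 fell by 0.29 ± 0.07 log2 per hr in hypoxia (slope −0.29, adjusted p = 0.00681) and by 0.31 ± 0.07 in UPF1-depleted cells (slope −0.31, adjusted p = 0.00573), while its slope was 0.13 in tunicamycin (adjusted p = 0.183) and −0.12 in control cells (adjusted p = 0.216). The slope in hypoxia lay below that in tunicamycin by 0.43 ± 0.11 (difference −0.43, adjusted p = 0.0349), and the slope in tunicamycin lay above that in UPF1-depleted cells by 0.44 ± 0.11 (adjusted p = 0.0404). The difference between hypoxia and tunicamycin was lost in 6 of 30 alternative settings, and leaving out the 0 hr array of hypoxia gave −0.22 (adjusted p = 0.492). That between tunicamycin and UPF1-depleted cells was lost in 12 of 30, with 0.26 (adjusted p = 0.611) without the UPF1-depleted array at 0 hr. Against control cells neither hypoxia (−0.18, adjusted p = 0.587) nor UPF1 depletion (−0.19, adjusted p = 0.863) passed. The fall in hypoxia and in UPF1-depleted cells came mainly between 0 and 1.5 hr. Without the 0 hr array of the condition the slopes were −0.13 in hypoxia (adjusted p = 0.489) and −0.17 in UPF1-depleted cells (adjusted p = 0.380). Without the 4.5 hr array of hypoxia its adjusted p was 0.0769. The conditions in which BCL2A1 fell or lay at background were the 3 with the wider gap between the ACTB ends, 2.04 in hypoxia, 2.04 in emetine and 1.24 in UPF1-depleted cells, against 0.54 in tunicamycin and 0.55 in control cells. The part of that gap in the result was not tested.

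BCL2L1, the gene of BCL-XL, was the steadiest of the anti-apoptotic members. Its intensity ran from 781 to 908 in emetine, from 618 to 777 in hypoxia, from 452 to 624 in tunicamycin, from 617 to 673 in UPF1-depleted cells and from 518 to 640 in control cells. The emetine arrays lay above every array of every other condition. The level in emetine was higher than in control cells by 0.45 ± 0.13 log2, or 1.37-fold (adjusted p = 0.0183). That call was lost with the median of its 4 probe sets (0.23, adjusted p = 0.191), and without the control array at 0 hr (adjusted p = 0.0919) or at 1.5 hr (adjusted p = 0.0549), or the emetine array at 0 hr (adjusted p = 0.144). No slope of BCL2L1 passed in any condition, and its slopes lay between −0.07 in control cells and −0.02 in emetine. In control cells 81.0% of the starting intensity was left at 4.5 hr, and in emetine 92.9%.

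**Figure D3:**
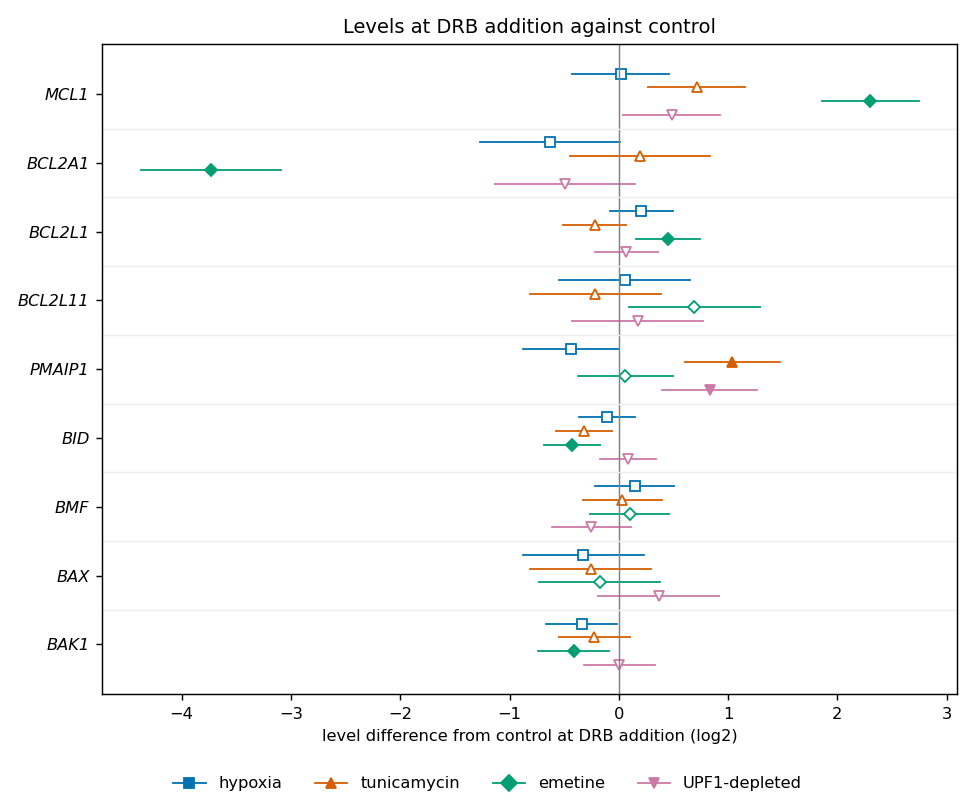
Fitted difference from control in log2 level at DRB addition (horizontal axis) for each member (vertical axis) in the 4 treated conditions, with 95% intervals. Filled symbols have an adjusted p under 0.05. MCL1 (2.30) and BCL2A1 (−3.73) in emetine lie farthest from 0 on either side, and PMAIP1 is raised in tunicamycin (1.04) and UPF1-depleted cells (0.83).

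PMAIP1 (NOXA), the BH3-only protein that neutralises MCL1, had a higher RNA level in tunicamycin and in UPF1-depleted cells than in control cells. Its intensity at the 4 times was 3393, 3317, 3207 and 3164 in tunicamycin and 3032, 2649, 2575 and 2486 in UPF1-depleted cells. Emetine arrays gave 1844, 1553, 1884 and 1869, hypoxia arrays 1382, 866, 802 and 775, and control arrays 1838, 1323, 777 and 1062. Tunicamycin and UPF1-depleted arrays lay above all others without overlap. The level was higher than in control cells by 1.04 ± 0.20 log2, or 2.05-fold, in tunicamycin (adjusted p = 0.0162) and by 0.83 ± 0.20, or 1.78-fold, in UPF1-depleted cells (adjusted p = 0.0169). Both calls were lost without the control array at 0 hr (adjusted p = 0.134 in tunicamycin and 0.142 in UPF1-depleted cells) and without the 0 hr array of the condition itself (adjusted p = 0.0967 and 0.157 in the same order). The tunicamycin call was also lost without the tunicamycin array at 1.5 hr (adjusted p = 0.0592). The estimates in those fits stayed between 0.97 and 1.32. Emetine (0.06, interval −0.37 to 0.50) and hypoxia (−0.44, adjusted p = 0.214) did not pass.

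After DRB, PMAIP1 kept 101% of its starting intensity in emetine, 93.3% in tunicamycin, 82.0% in UPF1-depleted cells, 56.1% in hypoxia and 57.8% in control cells. It fell in hypoxia by 0.17 ± 0.06 log2 per hr (slope −0.17, adjusted p = 0.0384), which without the hypoxia array at 0 hr was −0.05 (adjusted p = 0.781) and was also lost without that at 3 hr (adjusted p = 0.0689) or at 4.5 hr (adjusted p = 0.0855). Its slope was less steep in emetine than in control cells by 0.23 ± 0.07 (adjusted p = 0.0473). That call stood close to the threshold and was lost in 20 of 29 alternative settings, with estimates from 0.18 to 0.41. The differences in slope from control were 0.19 in tunicamycin (interval 0.03 to 0.34, adjusted p = 0.188) and 0.15 in UPF1-depleted cells (interval −0.01 to 0.30, adjusted p = 0.780). A second PMAIP1 probe set gave higher levels in tunicamycin by 1.15 and in UPF1-depleted cells by 1.03, and unlike the first also in emetine, by 0.67 ± 0.17 (adjusted p = 0.00668). In hypoxia its level difference from control was 0.34, against −0.44 on the first, and neither passed. Both PMAIP1 probe sets are of a type that can match more than 1 transcript.

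BCL2L11 (BIM), which binds every anti-apoptotic member, had 7 probe sets that did not behave alike. The brightest read 122, 118, 89.3 and 85.1 at the 4 times in hypoxia, 119, 91.7, 78.6 and 111 in tunicamycin, 191, 215, 179.7 and 209 in emetine. It read 129, 136, 94.1 and 92.2 in UPF1-depleted cells, against 109, 100.9, 116 and 57.7 in control cells. Emetine arrays were the highest without overlap, but the level difference from control was 0.69 ± 0.28 (adjusted p = 0.0653), and it passed in 7 of 30 alternative settings. The control slope of −0.17 did not pass (adjusted p = 0.0653). A dimmer BCL2L11 probe set read 96.8, 88.8, 48.7 and 40.2 in emetine, 74.4, 31.6, 21.6 and 22.2 in tunicamycin, 83.4, 34.7, 26.6 and 21.3 in UPF1-depleted cells, and 46.2, 36.8, 29.4 and 23.0 in control cells. Tested by itself among all probe sets above the filter, it was higher in emetine by 1.17 ± 0.25 (adjusted p = 0.00310). It fell in tunicamycin (slope −0.39, adjusted p = 0.00397), in UPF1-depleted cells (−0.42, adjusted p = 0.00142) and in control cells (−0.22, adjusted p = 0.0428). Another probe set was lower in emetine by 0.41 (difference −0.41, adjusted p = 0.0174) and had slopes above 0 in tunicamycin (0.12, adjusted p = 0.0240) and UPF1-depleted cells (0.13, adjusted p = 0.0172). BCL2L11 is spliced into several isoforms, the files do not place these probe sets on them, and no single direction holds for the gene.

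**Figure D4:**
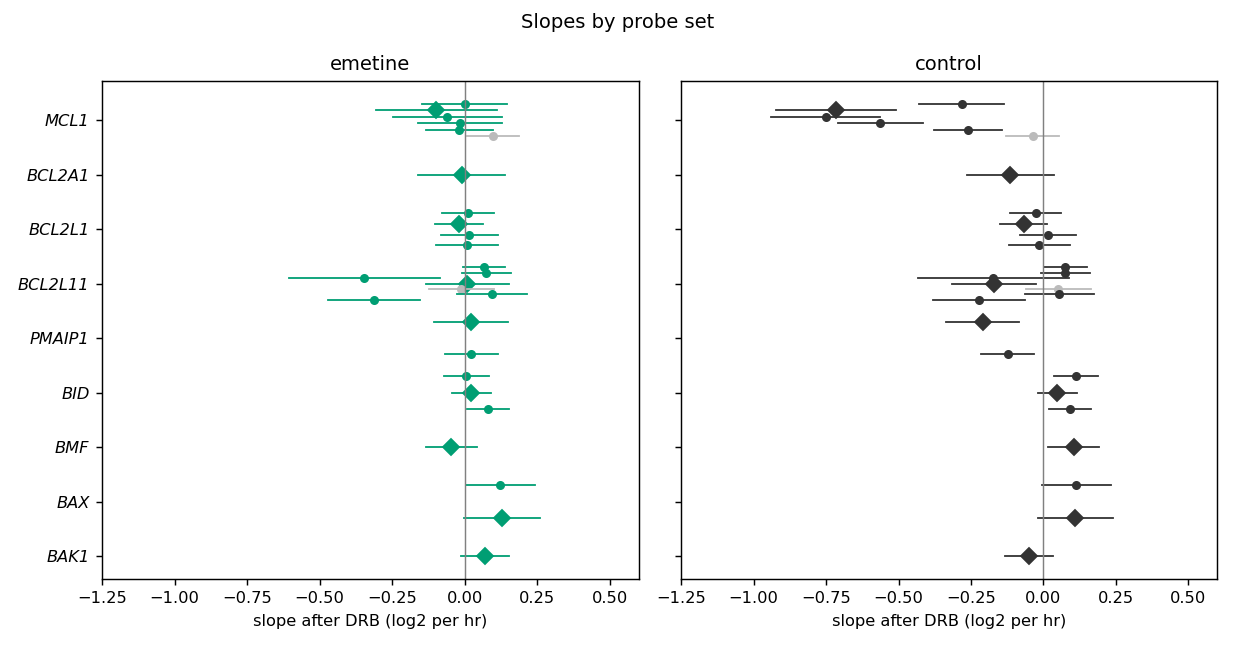
Slope after DRB in log2 per hr (horizontal axis) of every probe set of each member (vertical axis), in emetine (left) and control cells (right), with 95% intervals; diamonds mark the probe set used for the gene and grey symbols lie below the filter value. In control cells the probe sets of MCL1 lie left of 0, while those of BCL2L11 lie on both sides of it.

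BID, the BH3-only protein that caspase-8 cleaves to link death receptors to mitochondria, had slopes above 0 in every condition and was lower in emetine. Its intensity was 972, 1041, 1214 and 1395 in hypoxia, 790.5, 981, 1066 and 1138 in tunicamycin, 750.5, 808, 776 and 826 in emetine. It was 1082, 1153, 1338 and 1344 in UPF1-depleted cells, against 1054, 1104, 1003 and 1285 in control cells. Emetine arrays were lower than control arrays at 4 of 4 times. The level in emetine was lower by 0.43 ± 0.12 log2 (difference −0.43, adjusted p = 0.0115), and all 3 BID probe sets passed in that direction. In UPF1-depleted cells the level difference was 0.08 (adjusted p = 0.698), but 1 of the 3 probe sets, tested by itself, was higher by 0.50 ± 0.14 (adjusted p = 0.0331), and the median of the 3 also passed at 0.50 (adjusted p = 0.0279). The call of a lower BID level in emetine was lost without the control array at 0 hr (−0.31, adjusted p = 0.283) or the emetine array at 0 hr (−0.38, adjusted p = 0.189). BID rose relative to the array after DRB in hypoxia (0.12 ± 0.03 log2 per hr, adjusted p = 0.00747) and in tunicamycin (0.11 ± 0.03, adjusted p = 0.0137). It did not pass in control cells (0.05), where 1 of the 3 probe sets, tested by itself, rose. Neither rise differed from the control slope past the threshold (0.07 in hypoxia, adjusted p = 0.587, and 0.07 in tunicamycin, adjusted p = 0.494). Both rises are values relative to the other transcripts on the array. Both rises were lost without the 0 hr or the 4.5 hr array of their own condition, with adjusted p from 0.0621 to 0.510, and that in hypoxia was also lost without probe sets ending in _s_at or _x_at (0.10, adjusted p = 0.0608), that in tunicamycin with the median of the probe sets (0.09, adjusted p = 0.0666).

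BMF, a BH3-only protein released from the cytoskeleton, was dim throughout, with intensities from 30.6 to 53.2 over the 20 arrays. It rose relative to the array in UPF1-depleted cells by 0.12 ± 0.04 log2 per hr (adjusted p = 0.0380), with readings of 30.6, 39.1, 37.3 and 47.1. The same quantity in control cells was 0.10 (adjusted p = 0.0586), with readings of 37.4, 39.6, 53.2 and 48.7, and the difference between these slopes was 0.02 (adjusted p = 0.999). The call was lost in 5 of 28 alternative settings, among them centring on the ribosomal protein genes (adjusted p = 0.102) and leaving out the UPF1-depleted array at 0 hr (adjusted p = 0.461) or at 4.5 hr (adjusted p = 0.381). No level of BMF differed from control past the threshold.

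The effectors BAX and BAK1 had 1 call against control between them. BAX, which moves to mitochondria when activated, read 259, 294, 349 and 394 in hypoxia, 254, 368, 334 and 443 in tunicamycin, 338, 242, 423 and 439.6 in emetine. Its values were 429.9, 407, 551 and 508 in UPF1-depleted cells, against 302, 429.8, 354 and 472 in control cells. UPF1-depleted arrays lay above hypoxia arrays without overlap, and the other conditions overlapped both. The level of BAX in hypoxia against UPF1-depleted cells was −0.69 ± 0.26 and missed the threshold (adjusted p = 0.0669), passing in 4 of 29 alternative settings. No level or slope of BAX passed against control, and its level differences ran from −0.32 in hypoxia to 0.37 in UPF1-depleted cells. BAK1, the effector that MCL1 holds directly, read 167, 168, 168 and 145 in hypoxia, 168, 237, 220.1 and 226 in tunicamycin, 177, 162, 179 and 219.8 in emetine. BAK1 read 219, 211, 216 and 202 in UPF1-depleted cells, against 212, 222, 186.5 and 189 in control cells. Its level in emetine was lower by 0.41 ± 0.15 log2 (difference −0.41, adjusted p = 0.0457). That call stood near the threshold, was lost in 18 of 30 alternative settings, and the emetine array at 4.5 hr lay above its control. No slope of BAK1 passed in any condition.

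Counted over the family, emetine moved most levels. In emetine 2 of 9 members were higher (MCL1 and BCL2L1) and 3 lower (BCL2A1, BID and BAK1), while 18.9% of all genes were higher and 19.8% lower, so the counts are close to that background. In UPF1-depleted cells 1 of 9 was higher (PMAIP1), against 9.68% of all genes higher and 3.99% lower, and in tunicamycin 1 of 9 was higher (PMAIP1), against 1.97% of all genes higher and 0.926% lower. In hypoxia none of 9 passed in limma at a background of 3.21% higher and 4.44% lower, 2 had an unadjusted p under 0.05, and none passed with eBayes set to trend and robust. The median level difference over the 9 members was −0.11 for hypoxia, −0.21 for tunicamycin, 0.06 for emetine and 0.08 for UPF1-depleted cells. Over all genes those medians were −0.02, −0.03, −0.08 and 0.01 in the same order.

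In slope against control, 2 of 9 members were less steep in emetine (MCL1 and PMAIP1), where 12.8% of all genes were less steep and 1.58% steeper. None passed in limma in hypoxia (0.0345% of all genes higher in slope and 0 lower), in tunicamycin (4.66% higher and 0.58% lower) or in UPF1-depleted cells (0.0345% higher and 0.00691% lower). At an unadjusted p under 0.05 the counts were 1 in hypoxia, 3 in tunicamycin and 0 in UPF1-depleted cells, and eBayes with trend and robust gave 0 in each. Within conditions, 3 of 9 fell and 1 rose in hypoxia (14.2% of all genes fell and 15.3% rose), 1 fell and 1 rose in tunicamycin (11.4% and 11%), and 2 fell and 1 rose in UPF1-depleted cells (16.5% and 11%). None passed in limma in emetine, where 0.325% of all genes fell and 0.0691% rose, and no member had an unadjusted p under 0.05. With the trend and robust setting the emetine count was also 0.

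The treated conditions were also set against each other. In level, MCL1 and PMAIP1 were lower in hypoxia than in tunicamycin (2 of 9, 6.71% of all genes lower and 6.57% higher), by 0.69 ± 0.20 (difference −0.69, adjusted p = 0.0430) and 1.48 ± 0.20 (difference −1.48, adjusted p = 6.76e-04). PMAIP1 was lower in hypoxia than in UPF1-depleted cells (difference −1.27, adjusted p = 8.72e-04), the only member of 9 to pass (16.4% of all genes lower and 7.89% higher). Both PMAIP1 differences are those of its brightest probe set. Its 2 probe sets differed in sign in hypoxia against control (−0.44 and 0.34). Against emetine, hypoxia had 1 member higher (BCL2A1) and 1 lower (MCL1; 15.1% of all genes higher and 17.9% lower), and tunicamycin had BCL2A1 and PMAIP1 higher and MCL1, BCL2L1 and BCL2L11 lower (14% of all genes higher and 17.7% lower). Emetine against UPF1-depleted cells had MCL1 and BCL2L1 higher and BCL2A1, PMAIP1, BID and BAK1 lower (15.6% of all genes higher and 21.9% lower). Tunicamycin against UPF1-depleted cells had 1 member lower, BID (difference −0.40, adjusted p = 0.0388; 12.2% of all genes lower and 4.39% higher). For all these contrasts the trend and robust setting repeated the main fit, so it could not lose a call. The MCL1 difference between hypoxia and tunicamycin was lost in 14 of 30 alternative settings, with adjusted p of 0.486 without the hypoxia array at 0 hr and 0.302 without that of tunicamycin. The BID difference between tunicamycin and UPF1-depleted cells was lost in 12 of 30, with −0.22 (adjusted p = 0.487) without the tunicamycin array at 0 hr. Between emetine and UPF1-depleted cells, the BAK1 difference of −0.42 was lost in 18 of 30 (−0.82 to −0.30), and the BCL2L1 difference of 0.38 in 12 of 30, with the opposite sign in 1 more.

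In slope, MCL1 was steeper than in emetine in hypoxia (difference −0.37, adjusted p = 0.00502; 1 of 9, 10.1% of all genes steeper and 3.07% less steep) and in tunicamycin (−0.61, adjusted p = 3.73e-04; 1 of 9, 5.94% steeper and 0.463% less steep), and less steep in emetine than in UPF1-depleted cells (0.55, adjusted p = 2.82e-04; 1 of 9, 12.5% less steep and 1.24% steeper). The 2 BCL2A1 differences given above were the only member calls between hypoxia and tunicamycin (3.37% of all genes lower in slope and 2.53% higher) and between tunicamycin and UPF1-depleted cells (2.95% higher and 0.442% lower). No member passed in limma between hypoxia and UPF1-depleted cells, where 0.0967% of all genes were higher in slope and 0.00691% lower, and 1 member, MCL1, had an unadjusted p under 0.05 (0.18, adjusted p = 0.341).

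Over the 20 arrays, members' log2 values varied together in part. MCL1 correlated with BCL2L11 at a Pearson r of 0.87 and with BCL2L1 at 0.73, and with BID at −0.86 and BCL2A1 at −0.60. PMAIP1 correlated with MCL1 at 0.24 and with BAK1 at 0.63. The 20 points share conditions and times, and the emetine arrays lie at one end for MCL1, BCL2L11, BCL2L1 and BCL2A1, so these values are descriptions. Outside the family, the genes most like MCL1 over the 20 arrays were EPC1 (r = 0.988), ZNF304 (0.987), ZNF830 (0.986), ZNF281 and ZNF84 (both 0.985), and those most like PMAIP1 were LIN37 (0.956), APTR (0.953), POLR3D (0.952), POLR3C (0.938) and RP9P (0.937).

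Other genes of the pathway moved in ways that differed by condition. Of 19 further BCL2-related genes tested, 3 were higher in hypoxia, where 3.21% of all genes were, and all are BH3-only or BH3-like: BNIP3 by 2.01 ± 0.19 log2 (adjusted p = 7.33e-05) and BNIP3L by 1.24 ± 0.15 (adjusted p = 7.12e-04), mitophagy receptors known as targets of HIF, and BIK by 0.95 ± 0.15 (adjusted p = 0.00424). In emetine 4 of 19 were higher and 2 lower, against 18.9% and 19.8% of all genes, with BAG3, a co-chaperone, higher by 1.003, and BOK and the anti-apoptotic BCL2L2 (BCL-W) lower by 0.85 and 1.08 (differences −0.85 and −1.08). In UPF1-depleted cells 4 of 19 were higher and 2 lower, against 9.68% and 3.99% of all genes, led by BAG1 (1.18), HRK (0.88), a BH3-only gene, and BCL2L13 (0.73). In tunicamycin none of 19 passed in limma (1.97% of all genes higher and 0.926% lower), and 3 had an unadjusted p under 0.05. After DRB in control cells 4 of 19 fell and 2 rose, against 17.5% and 14.2% of all genes, with slopes of −0.41 for BNIP1, −0.23 for BIK and −0.23 for BAG3, and each of these genes had a less steep slope in emetine, by 0.42, 0.28 and 0.23 in that order. For BNIP1 it was also less steep in tunicamycin, by 0.48 ± 0.05 (adjusted p = 3.58e-04).

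Of 30 genes that act before or after the mitochondrial step, such as death receptors, caspases and their inhibitors, 5 were higher and 8 lower in emetine, against 18.9% and 19.8% of all genes. The death receptor FAS (−0.86) and the caspase-8 inhibitor CFLAR (−0.82) were lower and BIRC6 was higher (0.76). In control cells 7 of 30 fell after DRB and 1 rose, against 17.5% and 14.2% of all genes. The adaptor FADD fell by 0.81 ± 0.06 log2 per hr (slope −0.81, adjusted p = 6.03e-07) and the receptor TNFRSF1A by 0.66 ± 0.05 (slope −0.66, adjusted p = 1.32e-06), slopes of the order of that of MCL1. Both had less steep slopes in emetine, by 0.84 for FADD and 0.59 for TNFRSF1A. In tunicamycin 2 of 30 were higher in level (1.97% of all genes), BIRC2 (0.51) and TNFRSF10B (0.60), the death receptor DR5, and in hypoxia 1 was lower (4.44% of all genes), FADD (−0.70).

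Of 32 genes that act upstream of the family or on the turnover of its RNAs and proteins, 15 were higher and 2 lower in emetine, against 18.9% and 19.8% of all genes. They were led by ZFP36 (4.76 ± 0.15 log2, adjusted p = 2.58e-09), which binds AU-rich mRNAs and promotes their decay, DDIT3 (4.31), the stress factor CHOP, and FOXO3 (1.68). In tunicamycin 5 of 32 were higher, against 1.97% of all genes, among them DDIT3 by 5.05, ATF3 by 3.60 and TRIB3 by 1.54, all part of the unfolded protein response. UPF1-depleted cells had 4 of 32 higher, against 9.68% of all genes, among them ATF3 (2.56), ATF4 (0.59) and FOXO1 (0.49). Hypoxia had 1 of 32 higher (3.21% of all genes), FOXO1 (0.51), and 1 lower (4.44%), BTRC (−0.49), an F-box protein.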

How the data were processed

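RNA of U2OS cells was amplified and labelled for Affymetrix 3′ arrays, per the labels' protocols, in 5 conditions at 4 times with 1 array each. The deposited table holds the authors' intensity values on a linear scale, made with RMA per the submitters' processing notes; its version, the background step and detection calls are not given in the sources used here. Gene symbols came from the annotation of the array platform (41097 probe sets with 1 symbol, 1801 with several, 11777 with none).

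Values were taken to log2, with no pseudocount. A gene's value is that of its brightest probe set of 1 symbol, used where the mean lay above the 40th percentile of the array's probe sets (log2 4.70). limma 3.58.1 in R 4.3.3 was fitted to all 20 arrays: time as a factor, condition and a line for each condition (12 coefficients, 8 residual degrees of freedom) for level and slope against control, and 1 line for each condition (10 residual degrees of freedom) for slopes within conditions. Benjamini-Hochberg adjustment ran over all 14478 genes, with a threshold of 0.05. Values after ± are standard errors of the fit unless marked SD. With 1 array per condition and time, p-values reflect only how single arrays scatter about these lines. The number of arrays limits the precision, and no group had enough arrays for a test of outlying samples. The code was tested on simulated data.

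All members were to be named, and from each further list at most the 3 genes with the largest moderated statistic among those past the threshold in a comparison, besides the 5 genes most like MCL1 and PMAIP1. The members and lists were chosen with earlier results of these data known. Other scalings, filters, probe set choices, variance models and left-out arrays were tried.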

Additional observations from a re-analysis of the deposited data

Results flagged for a closer look

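The results below are differences between conditions that passed their own test in limma (log2, adjusted p over all 14478 genes). MCL1 had a slope in emetine above that of control by 0.62. Its level was lower in hypoxia than in tunicamycin (−0.69, lost in 14 of 30 alternative settings) and in emetine (−2.28), lower in tunicamycin than in emetine (−1.59) and higher in emetine than in UPF1-depleted cells (1.82). Its slope was steeper in hypoxia (−0.37, lost in 3 of 30) and in tunicamycin (−0.61) than in emetine, and less steep in emetine than in UPF1-depleted cells (0.55).

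BCL2A1 stood higher in hypoxia (3.10) and in tunicamycin (3.92) than in emetine, and lower in emetine than in UPF1-depleted cells (−3.24), all against emetine values at background. Its slope differed between hypoxia and tunicamycin (−0.43) and between tunicamycin and UPF1-depleted cells (0.44), calls lost in 6 and 12 of 30 alternative settings, with estimates down to −0.22 and 0.26. BCL2L1 was lower in tunicamycin than in emetine (−0.67) and higher in emetine than in UPF1-depleted cells (0.38), lost in 3 and 12 of 30, the second with the opposite sign in 1 more. BCL2L11 was lower in tunicamycin than in emetine (−0.90), on its brightest probe set, lost in 4 of 30.

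PMAIP1 had a slope in emetine above control by 0.23, lost in 20 of 29. On its brightest probe set, its level was lower in hypoxia than in tunicamycin (−1.48) and in UPF1-depleted cells (−1.27), higher in tunicamycin than in emetine (0.98, lost in 1 of 29) and lower in emetine than in UPF1-depleted cells (−0.77, lost in 2 of 29). BID was lower in tunicamycin (−0.40, lost in 12 of 30) and in emetine (−0.51, lost in 2 of 30) than in UPF1-depleted cells. BAK1 was lower in emetine than in UPF1-depleted cells (−0.42), a call lost in 18 of 30. The contrasts share arrays, so they are not independent of each other. For those between treated conditions, the trend and robust setting repeated the main fit and could not lose a call.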

How the results depend on the processing

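Of 225 estimates for the 9 members, 165 kept their call in every alternative tried (20 arrays left out in turn and 10 other settings). An estimate that did not pass and stayed so also counts as kept here. Most of the 225 did not pass, so these totals do not measure how firm the calls were. All losses of a call fall on the estimates that passed. For differences between treated conditions the trend and robust setting repeated the main fit, so there it could only count as kept. Over 6639 alternative values, 6406 kept their call, 160 lost one and 72 gained one. In 1 more, an estimate past the threshold turned sign. This was the BCL2L1 level in emetine against UPF1-depleted cells, at −0.10 (adjusted p = 0.591) with the median of its probe sets. A sign that changed where neither fit passed was counted as kept. An example is the BAK1 level in tunicamycin (−0.22, with alternatives from −0.36 to 0.14). The higher MCL1 level and less steep MCL1 slope in emetine and the low BCL2A1 in emetine kept their calls in all 30. Leaving out an array of a condition outside a comparison does not change its estimate, only the shared spread. Those settings are therefore a weak check, and every count of lost calls includes them. Without probe sets ending in _s_at or _x_at, 7 members could be tested and the members called were 0 in level for tunicamycin, 0 in level for UPF1-depleted cells, 1 in slope for emetine and 2 within hypoxia. With the median of the probe sets they were 2 in level for UPF1-depleted cells, 1 in slope for emetine and 1 within tunicamycin. Quantile normalization, no filter, each probe set tested by itself, and time as 1 line per condition each left 1 in slope for emetine. The control arrays alone left 1 within control. Leaving out 1 array at a time gave 0 to 1 members in level for hypoxia, 0 to 2 for tunicamycin, 2 to 6 for emetine and 0 to 2 for UPF1-depleted cells. In slope it gave 0 to 1 for tunicamycin and 1 to 3 for emetine, and within conditions 1 to 4 for control, 0 to 5 for hypoxia, 0 to 3 for tunicamycin and 0 to 4 for UPF1-depleted cells. Calls over all genes moved by over 1.5 times too. In level they numbered 1108 in hypoxia (688 without _s_at and _x_at probe sets, 77 to 1163 with 1 array left out), 419 in tunicamycin (683 with trend and robust eBayes, 234 with time as 1 line, 88 to 415), 5601 in emetine (2526 to 5761) and 1978 in UPF1-depleted cells (274 to 2072). In slope they numbered 5 in hypoxia (0 to 54 over all settings), 758 in tunicamycin (501 with the median, 484 without _s_at and _x_at, 468 with 1 line, 141 to 788), 2087 in emetine (967 to 2156) and 6 in UPF1-depleted cells (0 to 29). Within conditions they numbered 4271 in hypoxia (1336 to 4548), 3238 in tunicamycin (548 to 3596), 57 in emetine (123 with the median, 2 to 73), 3978 in UPF1-depleted cells (1214 to 4340) and 4592 in control cells (1582 with control arrays alone, 1492 to 4878). The share of calls that were higher moved with scaling: 70.8% in level for UPF1-depleted cells (59.5% with ribosomal centring, 51.7% with quantile), 89.0% in slope for emetine (76.1% with quantile), and within conditions 52.0% for hypoxia (30.3% with ribosomal centring), 49.2% for tunicamycin (26.3%), 39.9% for UPF1-depleted cells (21.0%, and 59.9% with quantile) and 44.9% for control (28.2%, and 59.7%). The cause was not tested. The time factor pairs arrays of one time across conditions, and time as 1 line per condition is the fit without that pairing. Lists of other genes were not recomputed under the alternatives. The array count and the missing detection calls limit every statement on dim probe sets such as BMF and BCL2A1 in emetine.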
